A study of Danio rerio with 10 samples.

Results

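The resting chromatin of the lateral rectus, the eye muscle that turns the eye outward, was described in adult zebrafish from 3 lists of intervals called in uninjured muscle. The lists hold the places where histone H3 carried acetylation of lysine 27 (H3K27Ac), trimethylation of lysine 4 (H3K4me3) or trimethylation of lysine 27 (H3K27me3), mapped by chromatin immunoprecipitation and sequencing. Every interval of these 3 control lists was a member: 35692 for H3K27Ac, 17331 for H3K4me3 and 15593 for H3K27me3, together 68616 of the 196467 intervals in the 9 lists of the series. They come from 3 of the 10 samples. The remaining lists cover the same marks after injury and served here to place gene starts and to count all intervals. The input library was not used.

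Each mark had 1 library from a pool of 119 fish, so no value below has a replicate check and no test between marks or genes was possible. The fish were 4 to 18 months old. They are wild-type in the design text. The growth protocol adds fish with the transgene α-actin::EGFP, and the sources do not say which of them entered the pool. The control muscle was the segment removed from both eyes, and the labels list the treatment as injury for control samples as well, although their titles call them control. Chromatin was sheared to 300 to 500 bp. The labels name the cells as adult muscle cells. The tissue was nevertheless a pool of whole muscle pieces, so fewer cells of a type and less of a mark per cell cannot be told apart. For the same reason, marks on the same chromosome copy and marks on different copies or in different cells cannot be told apart.

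H3K4me3 is laid down around the starts of transcribed genes by the KMT2 and SETD1 methyltransferases. H3K27Ac is written by the acetyltransferases Ep300 and Crebbp at active promoters and enhancers. H3K27me3 is written by Polycomb repressive complex 2, whose catalytic subunits are Ezh1 and Ezh2, over developmental genes that are kept silent. Acetylation and trimethylation of lysine 27 exclude each other on a single histone tail. Signal is given as tag pileup, the number of sequenced tags stacked over a position, as an average over the interval or as its maximum. Pileups of different antibodies were not compared with each other as levels.

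The 3 marks differed first in shape. Intervals of H3K27Ac had a median length of 2000 bp (quartiles 1400 and 3400 bp) and covered 106.1 Mb, with the longest at 55600 bp. Intervals of H3K4me3 had a median of 2800 bp (1600 and 4000 bp) and covered 53.1 Mb, and none exceeded 21600 bp. Intervals of H3K27me3 had a median of 5600 bp (3400 and 8800 bp) and covered 111.2 Mb, with the longest at 146400 bp. Intervals of at least 10000 bp numbered 1073 for H3K27Ac, 119 for H3K4me3 and 3098 for H3K27me3, and those of at least 50000 bp numbered 2, 0 and 37. The deposited annotation placed a CpG island in 9.60% of H3K27Ac intervals, 23.8% of H3K4me3 intervals and 17.6% of H3K27me3 intervals.

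**Figure D1:**
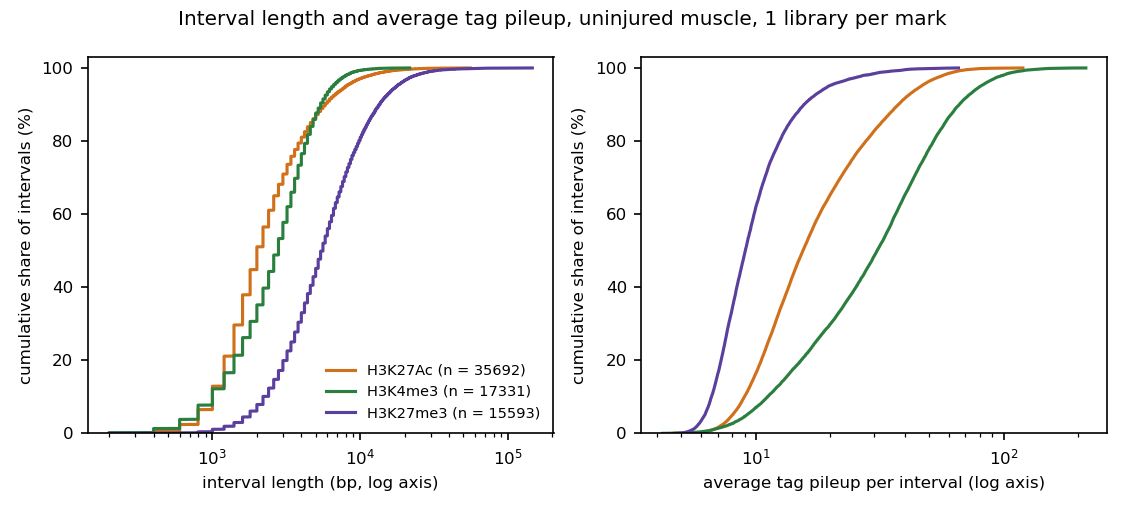
Cumulative share of intervals by length in bp (left) and by average tag pileup (right), both on log axes, for the 3 marks in uninjured muscle, 1 library each. The H3K27me3 curve lies to the right for length, with a median of 5600 bp, and the curves on the right describe each antibody on its own scale.

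Length and strength picked out different intervals. Of the 100 H3K27Ac intervals with the highest average, 19 were among the 100 with the highest maximum and 0 among the 100 longest. For H3K4me3 the numbers were 14 and 0. For H3K27me3 they were 56 and 16, so strength and length coincided more often there. Across intervals, Spearman's rho between length and average was -0.06 for H3K27Ac, 0.30 for H3K4me3 and 0.05 for H3K27me3, as a description of these lists.

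The strongest H3K27Ac intervals were short and sat at gene starts. All 10 intervals with the highest average held or adjoined a gene start and overlapped H3K4me3, and their lengths ran from 600 to 4600 bp. The highest average, 119.6, belonged to an interval of 1000 bp on chromosome 23 (2481801 to 2482800, build danRer10) that held the start of tcp1, which encodes a subunit of the cytosolic chaperonin. The next were intervals at taz (114.6), which encodes the cardiolipin-remodelling enzyme tafazzin, and at napga (114.1), which encodes a SNAP protein of vesicle fusion. The interval at junbb, an AP-1 transcription factor, averaged 108.1 over 4600 bp. Starts of bud31, a splicing factor, clpxb, a subunit of a mitochondrial protease, and hace1, a ubiquitin ligase, were also among the 10.

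Ranked by maximum, the H3K27Ac list was led by kmt2e (maximum 367), which encodes a SET-domain protein, in an interval of 36400 bp, and by brdt (341), which encodes a bromodomain protein. The start of klf9, a hormone-responsive zinc-finger factor, lay in the interval ranked 4 (maximum 316, average 63.9), and that of tefb, a clock-controlled bZIP factor, in the interval ranked 6 (maximum 304, average 95.5). In this ranking 7 of the top 10 intervals held or adjoined a gene start.

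The longest H3K27Ac intervals were of mixed kinds, and several also lay under H3K27me3. The longest, 55600 bp on chromosome 21 (23153201 to 23208800), was listed for zbtb16a alone, a zinc-finger transcription factor, and had its summit at a listed distance of 73856 bp from the start of that gene. It overlapped no H3K4me3 interval, and 37000 bp of it lay under H3K27me3. The interval ranked 2 (50800 bp) held the start of hcar1-4, a hydroxycarboxylic acid receptor, and 26000 bp of it lay under H3K27me3. The interval at foxo3b, a transcription factor of muscle protein breakdown and fasting, was 49400 bp long with an average of 31.4 and had no H3K27me3 overlap. Those at nr4a1, an orphan nuclear receptor (45600 bp), synm, which encodes the desmin-binding intermediate filament protein synemin (45400 bp), zeb1b, a zinc-finger homeobox factor (43200 bp), and txnipa, a regulator of glucose uptake (43000 bp, average 53.3), followed. Of the 10 longest, 9 overlapped H3K4me3 and 5 overlapped H3K27me3. Of the 100 longest, 57 held or adjoined a gene start, compared with 85 of the 100 with the highest average.

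The strongest H3K4me3 intervals were likewise short. The 10 with the highest average were 1000 to 2200 bp long, 9 of them held a CpG island, and each overlapped H3K27Ac and no H3K27me3. They were led by tfap4, a bHLH transcription factor (average 214.7, maximum 369), usp37, a deubiquitinase (206.1), and prkacab, a catalytic subunit of protein kinase A (190.7). The start of kat2b, a histone acetyltransferase, was ranked 10 (170.3). By maximum, fem1a and tmed7 shared the leading interval (426), followed by kpnb1 (425), which encodes the nuclear import receptor importin beta, and by dyrk1aa and dscr3 (421).

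The longest H3K4me3 intervals were also mixed. The longest, 21600 bp, held the start of mcl1a, an anti-apoptotic BCL2 family member, with an average of 31.8 and a maximum of 363. That at kmt2e was 20200 bp long with an average of 63.4. Intervals at nr2f1a (18200 bp) and nr2f2 (18000 bp), which encode COUP-TF nuclear receptors, were covered over their whole length by both other marks. The interval over the globin genes hbaa1 and ba1 was 16600 bp long with an average of 9.17, and it also lay wholly under H3K27me3. All 10 overlapped H3K27Ac and 4 overlapped H3K27me3.

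HOX clusters and other homeobox genes stood among both the strongest and the longest H3K27me3 intervals. The highest average, 65.7, was at the end of chromosome 14 (201 to 14000), where the listed gene was bod1l1, at a distance of 29071 bp. It was followed by the HOX clusters hoxab (65.6 over 51200 bp of chromosome 16) and hoxcb (63.3 over 45200 bp of chromosome 11), and by pou3f3b, a POU transcription factor (61.7 over 9400 bp). Starts of phox2ba, an autonomic neuron homeobox gene, and bmi1b, itself a Polycomb component, were also among the 10 strongest. By maximum, the zic2a and zic5 interval (183) and that of nkx6.2 (176) stood in ranks 2 and 4, behind an interval near LOC101886347 (218).

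The longest H3K27me3 interval covered the hoxca cluster from 35906201 to 36052600 of chromosome 23 (146400 bp, average 55.3). Next came tle3a (128600 bp, average 17.4), a Groucho-family co-repressor whose paralogue tle3b was ranked 8 (80000 bp, average 22.5). The intervals listed for sox6 (109800 bp, average 15.6) and sox5 (107200 bp, average 14.4) were also long and weaker; sox6 encodes a repressor of slow-fibre genes in zebrafish fast muscle. Within the sox6 interval 43600 bp lay under H3K27Ac and 1400 bp under H3K4me3. The remaining long intervals were at hoxba, hoxaa, shox, a short-stature homeobox gene (81800 bp), and hoxbb.

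H3K4me3 and H3K27Ac shared most of their places. Of H3K4me3 intervals, 85.3% (14776 of 17331) overlapped H3K27Ac by at least 1 bp, whereas 42.2% of H3K27Ac intervals (15063 of 35692) overlapped H3K4me3. The exact (Clopper-Pearson) 95% intervals of these shares, which cover counting error only, were 84.7 to 85.8% and 41.7 to 42.7%. H3K27Ac intervals with H3K4me3 had a median average of 25.5, and those without had 12.3. Among the 10% of H3K27Ac intervals with the lowest averages 7.76% overlapped H3K4me3, and among the highest 10% the share was 97.8%.

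Overlap with H3K27me3 was smaller. It met 35.4% of H3K4me3 intervals (6136) and 19.4% of H3K27Ac intervals (6923). From its own side, 36.2% of H3K27me3 intervals (5637) overlapped H3K4me3 and 37.8% (5895) overlapped H3K27Ac. In bases the sharing was less: 11.2% of the H3K27me3 bases lay under H3K4me3 and 14.7% under H3K27Ac, compared with 60.5% of H3K4me3 bases under H3K27Ac. The share of H3K27me3 intervals with H3K4me3 was 13.5% among the 10% with the lowest averages and 61.3% among the highest 10%. For H3K4me3 the share with H3K27me3 was 35.8% among the weakest 10%, 44.8% in the next 10% and 21.8% among the strongest 10%. No interval in the top 1% of H3K27me3 by average overlapped an interval in the top 1% of H3K27Ac or H3K4me3. Of the 357 top H3K27Ac intervals, 27 overlapped a top H3K4me3 interval. These top lists are small, and the number of overlaps expected for lists of their size was not computed. The lack of overlap therefore does not show that the strongest intervals exclude each other.

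Merging overlapping intervals of all marks gave 44552 separate places. H3K27Ac alone occupied 18418 (41.3%), H3K27Ac with H3K4me3 9610, and H3K27me3 alone 8284. All 3 marks were present in 4577 places, which spanned 22.3% of the marked bases (48.4 Mb) with a median length of 8200 bp. A place is a chain of overlapping intervals, so its 3 marks need not share a base. Over all places H3K4me3 and H3K27me3 shared 12.5 Mb. H3K4me3 with H3K27me3 and no H3K27Ac, the pattern called bivalent in embryonic stem cells, made up 1198 places. H3K4me3 alone was found in 1105.

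**Figure D2:**
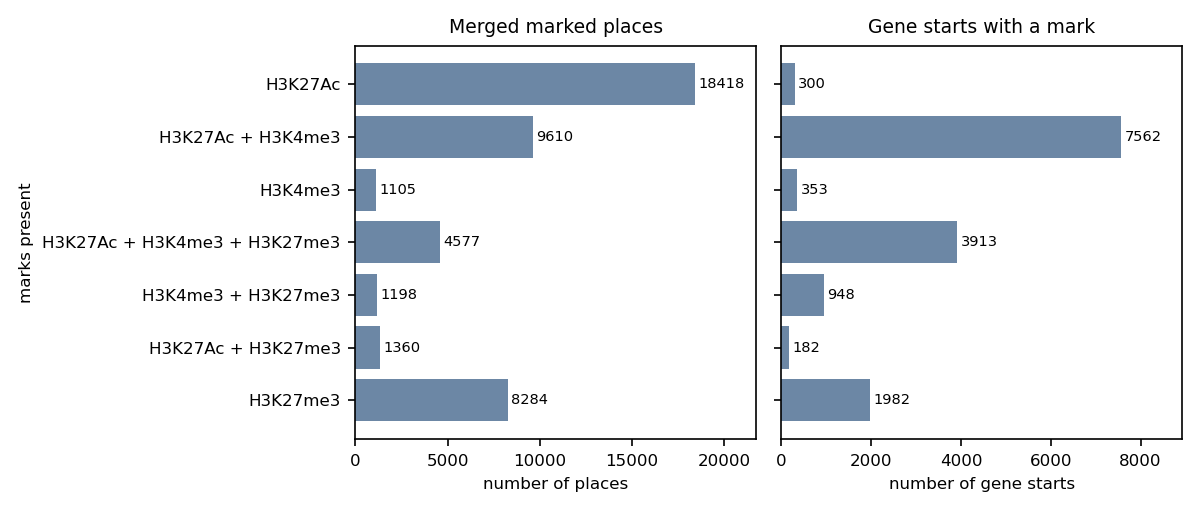
Number of merged marked places (left) and of named protein-coding gene starts (right) with each combination of marks in uninjured muscle, 1 library per mark. H3K27Ac alone leads among places with 18418, whereas H3K27Ac with H3K4me3 leads among gene starts with 7562.

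At gene starts the marks followed another distribution. A start was said to carry a mark when it lay inside an interval or within 1000 bp of its edge. Of 22184 named protein-coding genes, 53.9% carried H3K27Ac, 57.6% carried H3K4me3 and 31.7% carried H3K27me3. Over all 41229 genes of the reference table, most of the added ones unnamed, the shares were 30.3%, 32.3% and 18.3%. H3K27Ac with H3K4me3 was the leading combination (7562 genes, 34.1%), followed by all 3 marks (3913, 17.6%), H3K27me3 alone (1982, 8.93%) and H3K4me3 with H3K27me3 (948, 4.27%). No interval was assigned to 6944 genes, most of which are not named in any interval list. Of the 17415 named there, 2175 had no mark, and 68.7% carried H3K27Ac, 73.4% H3K4me3 and 40.3% H3K27me3. Of starts with H3K27Ac, 96.0% carried H3K4me3, and of starts with H3K27me3, 69.2% did. The number with all 3 marks fell to 2448 when the start had to lie inside the interval and to 1411 with a deposited distance of at most 1000 bp.

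Starts with H3K4me3 but no H3K27Ac had short, weak H3K4me3 intervals, whether or not they carried H3K27me3. The median H3K4me3 average was 16.6 over 1600 bp with H3K27me3 and 16.4 over 1400 bp at starts with H3K4me3 alone. It was 40.7 over 3600 bp at starts with H3K27Ac and H3K4me3 and 34.6 over 3200 bp at starts with all 3 marks. At starts with H3K4me3 and H3K27me3 but no H3K27Ac, 49.6% of H3K4me3 intervals held an annotated CpG island. The share was 19.4% at starts with H3K4me3 alone and 22.7% at starts with H3K27Ac and H3K4me3. H3K27me3 at starts with H3K4me3 and H3K27me3 was higher than at starts with all 3 marks, with a median average of 12.9 compared with 10.1. Across 10544 distinct pairs of intervals at starts, the averages of H3K27Ac and H3K4me3 were related (Spearman's rho 0.52). Across 4615 such pairs, those of H3K4me3 and H3K27me3 were hardly so (-0.06). These correlations are across pairs of intervals, which share libraries and are not independent replicates.

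The position of H3K27me3 at starts with all 3 marks differed from that in the other classes. The H3K4me3 summit lay a median of 181 bp downstream of the start, downstream in 87.1% of 12782 starts, and that of H3K27Ac a median of 182 bp downstream. At starts with H3K4me3 and H3K27me3, the H3K27me3 summit lay a median of 265 bp downstream, and the start was inside the H3K27me3 interval in 96.3% of 952 cases. Its median position was 192 bp downstream at starts with H3K27me3 alone and 32 bp downstream at those with H3K27Ac and H3K27me3, with the start inside the interval in 94.9% and 93.0%. At starts with all 3 marks the H3K27me3 summit had a median position of -943 bp, upstream of the start, and lay downstream in 38.0%. There the start was inside the H3K27me3 interval in 2667 of 3907 cases (68.3%), and in the rest the interval ended within 1000 bp of the start. H3K27me3 covered a median of 66.7% of the H3K4me3 interval at those starts and 100% at starts with H3K4me3 and H3K27me3 but no H3K27Ac. The H3K4me3 intervals of the latter were shorter, with a median of 1600 bp compared with 3200 bp, so full coverage took fewer bases.

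**Figure D3:**
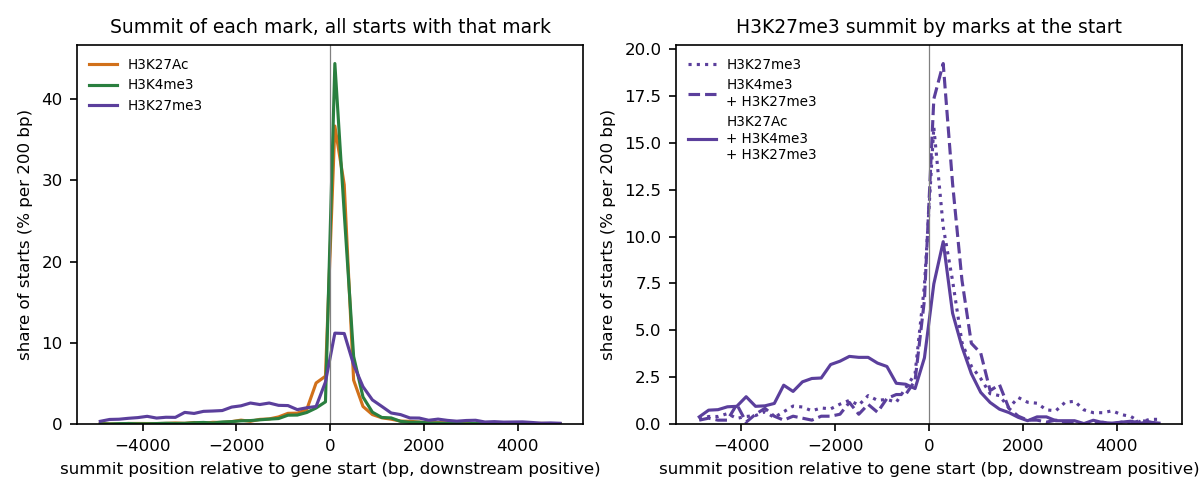
Position of the interval summit relative to the gene start, as the share of starts in bins of 200 bp, for each mark (left) and for H3K27me3 by the marks at the start (right). H3K4me3 and H3K27Ac peak just downstream of the start, and H3K27me3 at starts with all 3 marks has a broad shoulder upstream, with a median of -943 bp.

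Away from gene starts, H3K27Ac was the most frequent mark. Of its intervals, 63.5% lay farther than 1000 bp from any placed start, compared with 20.6% for H3K4me3 and 51.7% for H3K27me3. Distal H3K27Ac had a median average of 12.9, and intervals at starts had 26.3. H3K27Ac intervals that lay away from starts and overlapped no H3K4me3, the pattern usual for enhancers, numbered 19840 (55.6%), and 9.93% of them overlapped H3K27me3. Genes listed for most of them, singled out after their values were seen, were adka, adenosine kinase (27 intervals), nfixb, a transcription factor of myogenic maturation in mouse (26), jmjd1cb, a histone demethylase (25), and zmiz1a (24), and mef2aa, a MADS-box activator of muscle genes, had 17. Gene span was not taken into account in these counts, and long genes have more room for intervals.

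The lists of genes were read against the shares over all named protein-coding genes given above. Genes of the fast sarcomere, which builds the contractile apparatus of fast fibres, carried H3K27Ac in 22 of 38, H3K4me3 in 19 and H3K27me3 in 13. These shares were close to those of all 22184 genes. Of the 38, 33 are named in the interval lists. Among these 33 the H3K4me3 share was below the 73.4% of the 17415 genes named there, and the other 2 marks stayed close. Their intervals differed in shape and strength from the median start, in a way also seen in some lists of other cell types given below. Their H3K27Ac intervals had a median length of 5000 bp, compared with 2000 bp over all starts, and 17 of 22 were longer than the upper quartile of 3400 bp, where 24.4% of all starts with H3K27Ac were. Their H3K4me3 had a median average of 10.3, compared with 36.5 over all starts, and 18 of 19 lay below the lower quartile of 23.9, where 25.0% of all starts with H3K4me3 did.

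Most of these genes define skeletal muscle. They cannot serve as a check of the labelled tissue, since their shares lay near or below those of all genes and their interval shape recurred in other lists. The start of atp2a1, the fast-fibre calcium pump of the sarcoplasmic reticulum, lay in an H3K27Ac interval of 35800 bp with an average of 20.7, beside H3K4me3 of 11.1 over 5600 bp. The start of mylpfa, the fast regulatory myosin light chain, had H3K27Ac over 18000 bp (20.5), H3K4me3 of 9.21 and H3K27me3 of 8.43. The muscle creatine kinase genes ckmb and ckma had H3K27Ac over 15200 and 10800 bp and H3K4me3 of 10.2 and 7.84. The start of tnnc2, fast troponin C, had the lowest H3K4me3 of the list (5.81) with H3K27Ac of 16.2. Low H3K4me3 beside long H3K27Ac was thus found at these pump, myosin light chain and creatine kinase genes. The only member with H3K4me3 above the lower quartile was eno3, the muscle enolase, with H3K27Ac of 41.8 and H3K4me3 of 46.5. Lowest for H3K27Ac were actn3a (7.46) and tpma (7.77), both with H3K27me3 (16.6 and 18.2). No mark was found at 12 members, including mylpfb, tnnt3a, pvalb1 and myhz1.2. Several of these belong to families of near-identical copies, and the sources do not say how tags were assigned among copies, so values of single copies are uncertain.

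In H3K27Ac length and H3K4me3 average, the other structural lists departed less from all starts than the fast sarcomere list did. In their shares of H3K27Ac and H3K4me3, set against all 22184 genes, the excitation, dystrophin and slow sarcomere lists departed more. Among Z-disc and M-band genes 21 of 35 carried H3K27Ac and 19 carried H3K4me3, 14 of the 19 below the lower quartile. The starts of ldb3b, a Z-disc PDZ protein (H3K27Ac 35.7, H3K4me3 15.0) and tcap, telethonin (32.1 and 13.8), had low H3K4me3 beside H3K27Ac above the median of all starts, while flncb, filamin C, had H3K4me3 of 46.1 beside H3K27Ac of 28.0 over 28400 bp. Excitation and calcium genes carried H3K27Ac in 24 of 31, led by mtmr14, a phosphoinositide phosphatase (46.3), sypl2b (41.5), musk, the receptor kinase of the neuromuscular junction (38.1), and chrne, the adult acetylcholine receptor subunit (37.8). The dystrophin complex carried H3K27Ac in 18 of 25, with sntb2, a syntrophin, highest (60.0) and dtna lowest (10.6); dmd itself had 28.9, with H3K4me3 of 11.8. Of slow and cardiac-type sarcomere genes 14 of 35 carried H3K27Ac, 6 carried H3K4me3 and 19 had no mark. The H3K27Ac count was 9 with a deposited distance of at most 1000 bp and 23 with a margin of 5000 bp, and with that margin the share turned from below to above that of all genes (13065 of 22184). Among those without a mark were smyhc1, smyhc2 and smyhc3, the slow myosin heavy chains. The starts of atp2a2b (H3K27Ac 49.6, H3K4me3 79.9) and atp2a2a, the calcium pumps also used outside slow muscle, were among the 6 with H3K4me3.

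Metabolic and housekeeping genes had mostly stronger H3K4me3 than the structural lists, and their H3K27Ac lengths varied. Ribosomal and elongation genes carried H3K27Ac in 52 of 54 and H3K4me3 in 53 of 54, with a median H3K27Ac length of 2000 bp and a median H3K4me3 average of 46.5, and 3 of 53 lay below the lower quartile of H3K4me3. Highest for H3K27Ac were rps19 (66.9) and rps18 (66.3). The starts of eef1a1a and eef1a1b, elongation factor paralogues, differed from the list, with H3K4me3 of 11.3 and 13.5, and eef1a1a had no H3K27Ac. Oxidative metabolism genes carried H3K27Ac in 25 of 28, led by sdhb (67.2), atp5a1 (65.1), mdh2 (60.2) and ndufs1 (58.6), which encode respiratory chain, ATP synthase and citrate cycle enzymes. Those of muscle-type isoforms had lower H3K4me3, as in ckmt2a (6.31), ckmt2b (12.2) and cox6a2 (16.6). The starts of ppargc1a, a co-activator of mitochondrial genes, and mb, which encodes myoglobin, had no mark. Glycolysis genes carried H3K27Ac in 25 of 29, led by hk2 (71.9) and gpia (57.2), and H3K4me3 in 24, 8 of them below the lower quartile. Their H3K27Ac intervals had a median length of 4400 bp, and 16 of 25 were longer than the upper quartile, compared with 11 of 25 for oxidative metabolism and 9 of 52 for ribosomal and elongation genes.

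Clock and hormone response genes stood high on both measures. Of 43, 41 carried H3K27Ac and 41 carried H3K4me3, with medians of 35.6 over 5200 bp and 47.2 over 5200 bp. H3K27Ac was highest at tefb (95.5), per2 (83.9), fkbp5, a glucocorticoid-induced chaperone partner (68.1 over 19400 bp), and thraa, a thyroid hormone receptor (64.7). H3K27Ac was lowest at foxo1b (11.0) and nr1d4a (12.8). The start of fbxo32, the atrophy ubiquitin ligase atrogin-1, lay in H3K27Ac of 25400 bp, and also carried H3K27me3 (13.0 over 35600 bp). The start of dio2, the deiodinase that activates thyroid hormone, carried H3K4me3 alone (24.1).

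Immediate early and stress factors carried active marks in this uninjured pool. Of the list, 27 of 33 carried H3K27Ac and 27 carried H3K4me3, at medians of 37.4 and 54.6, and 15 of 33 carried all 3 marks. H3K27Ac was highest at junbb (108.1), jun (74.0), jund (67.4) and btg2 (65.3), and dusp1, a MAP kinase phosphatase, had 36.5 over 38800 bp. It was lowest at egr3 (15.1) and klf2b (15.9), and egr3 had the highest H3K27me3 of the list (28.6). The start of hsp70l, an inducible chaperone gene, had H3K27Ac of 40.4, H3K4me3 of 7.80 and H3K27me3 of 18.1. Muscle was removed under anaesthesia, and the time to fixation is not stated in the sources.

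Myogenic regulators carried varied combinations, with all 3 marks at 12 of 37, H3K27Ac and H3K4me3 without H3K27me3 at 11 and H3K27me3 alone at 4. The starts of myog and myf6, factors of differentiation and of mature fibres, carried H3K27Ac (21.6 and 16.4) and H3K4me3 (20.6 and 21.8) without H3K27me3. The start of myod1, the determination factor, carried all 3 marks (26.4, 28.6 and 22.1). The start of myf5, which acts early in myogenesis, carried H3K27me3 alone (10.1 over 8200 bp). So did pax3a (34.1), pax3b (19.2) and pax7a (27.3), genes of muscle progenitors and satellite cells, the muscle stem cells, while pax7b had no mark. The homeobox genes six1a, six1b, six4a and six4b carried all 3 marks, with H3K27me3 at six1a of 29.2 over 50600 bp. Over the list, 28 of 37 carried H3K27Ac, 25 carried H3K4me3 and 21 carried H3K27me3, and H3K27Ac was highest at srfa (47.0), mef2aa (33.4), six4a (32.9) and mef2d (31.8). Among satellite cell genes 16 of 18 carried H3K27me3 and 12 carried all 3 marks, with sdc4 (31.4) and her6 (25.7) highest for H3K27Ac and ncam1b (8.08) lowest.

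Regulators of head and eye muscle were nearly all under H3K27me3. It was present at 17 of 18 starts, with msc the exception, and at 10 of them it was the only mark. Those 10 were pitx1, tbx1, tcf21, lhx2a, lhx2b, isl1, myf5, barx1, hand2 and nkx2.5, most of which pattern the branchial arches, jaw muscle or heart. A further group of 6 carried all 3 marks, among them pitx3, alx4a, foxc1a, foxc1b and ebf3a. For pitx3, a homeobox factor of lens and midbrain development, H3K27Ac averaged 24.6 over 14400 bp, H3K4me3 31.9 over 11000 bp and H3K27me3 29.7 over 12400 bp. For ebf3a, an early B-cell factor family member, H3K27Ac averaged 20.4 over 25200 bp, H3K4me3 29.8 over 14600 bp and H3K27me3 18.2 over 31000 bp. The H3K27Ac intervals of the list had a median length of 14900 bp. The start of foxl2 carried H3K27Ac (10.1) and H3K27me3 (29.2).

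Trunk and limb patterning factors carried H3K27me3 in 14 of 18, at 10 of them alone, including tbx5a (35.2), tbx4 (38.7), pax9 (44.7), lbx1a (9.30) and lbx1b (20.7). H3K27Ac was present at 4 starts: lbx2 and meox2b, with all 3 marks, meox1, a somite homeobox gene, with H3K4me3, and tbx6, with H3K27Ac alone over 9600 bp. The starts of msgn1 and eng2a carried H3K4me3 (42.3 and 14.0) with H3K27me3.

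**Figure D4:**
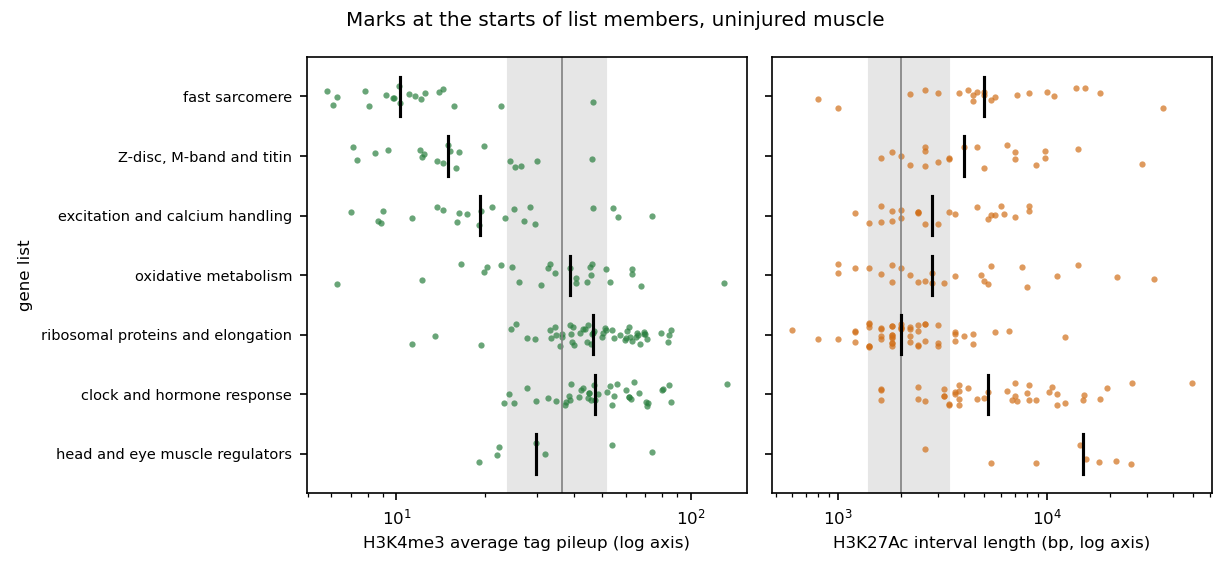
H3K4me3 average tag pileup (left) and H3K27Ac interval length in bp (right) at the starts of members of 7 gene lists, both on log axes, 1 library per mark. Each point is a gene with the mark, black bars are list medians, grey bands are the quartiles over all named protein-coding starts with the mark and grey lines their medians; fast sarcomere genes lie at low H3K4me3 (median 10.3) with long H3K27Ac (median 5000 bp).

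HOX genes, which set position along the body axis, were under H3K27me3 at all 49 starts, none of which carried H3K27Ac. These starts share intervals and are not independent. They lay in 11 H3K27me3 intervals with a summed length of 732800 bp, from 19000 to 146400 bp each, and averages from 20.4 at hoxc1a to 65.6 at the hoxab cluster. H3K4me3 was present at 7 starts, hoxa3a, hoxb2a, hoxb4a, hoxb5a, hoxc4a, hoxc5a and hoxd10a, in intervals of 1000 to 3600 bp with averages of at most 23.5. Except for hoxd10a, these genes lie in the 3′ and middle parts of their clusters.

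Other developmental regulators followed the HOX genes. Of 101 homeobox and related genes, 94 carried H3K27me3, 65 of them alone, and 12 carried H3K27Ac. Highest for H3K27me3 were pou3f3b (61.7), evx1 (59.4), evx2 (53.1) and otx1b (51.2). The starts of evx1 and evx2 lay in the H3K27me3 intervals of the hoxaa and hoxda clusters, so their values are those of the HOX intervals. The start of shox2, a limb and heart homeobox gene, had the highest H3K27Ac of the list (34.0), together with H3K4me3 of 50.2 and H3K27me3 of 47.1. Of 94 SOX, T-box, forkhead and bHLH genes, 84 carried H3K27me3, 43 carried H3K4me3 and 24 carried H3K27Ac. The starts of mgaa (H3K27Ac 71.8) and sox11b (22.4) carried active marks without H3K27me3, and that of tbx15, a factor of fast glycolytic fibres in mouse, carried all 3 with H3K27Ac over 26400 bp. Signalling ligands carried H3K27me3 in 59 of 67 and H3K27Ac in 9, and the starts of wnt7ba (34.9) and bmp4 (16.4) were highest for H3K27Ac. The start of mstnb, myostatin, the inhibitor of muscle growth, carried H3K4me3 (14.7) and H3K27me3 (18.8) and no H3K27Ac.

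Genes for the writers and erasers of these marks mostly carried H3K27Ac and H3K4me3, each at 41 of 44. H3K27me3 was present at 13. Among the highest were genes of Polycomb repressive complex 1: the starts of bmi1a, bmi1b, cbx8a and cbx8b carried all 3 marks, with H3K27me3 averages from 19.8 at cbx8b to 56.0 at bmi1b. The core subunits of Polycomb repressive complex 2, ezh1, ezh2, eed, suz12a and suz12b, carried H3K27Ac and H3K4me3 with no H3K27me3. For phc2a H3K4me3 and H3K27me3 were present without H3K27Ac.

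**Figure D5:**
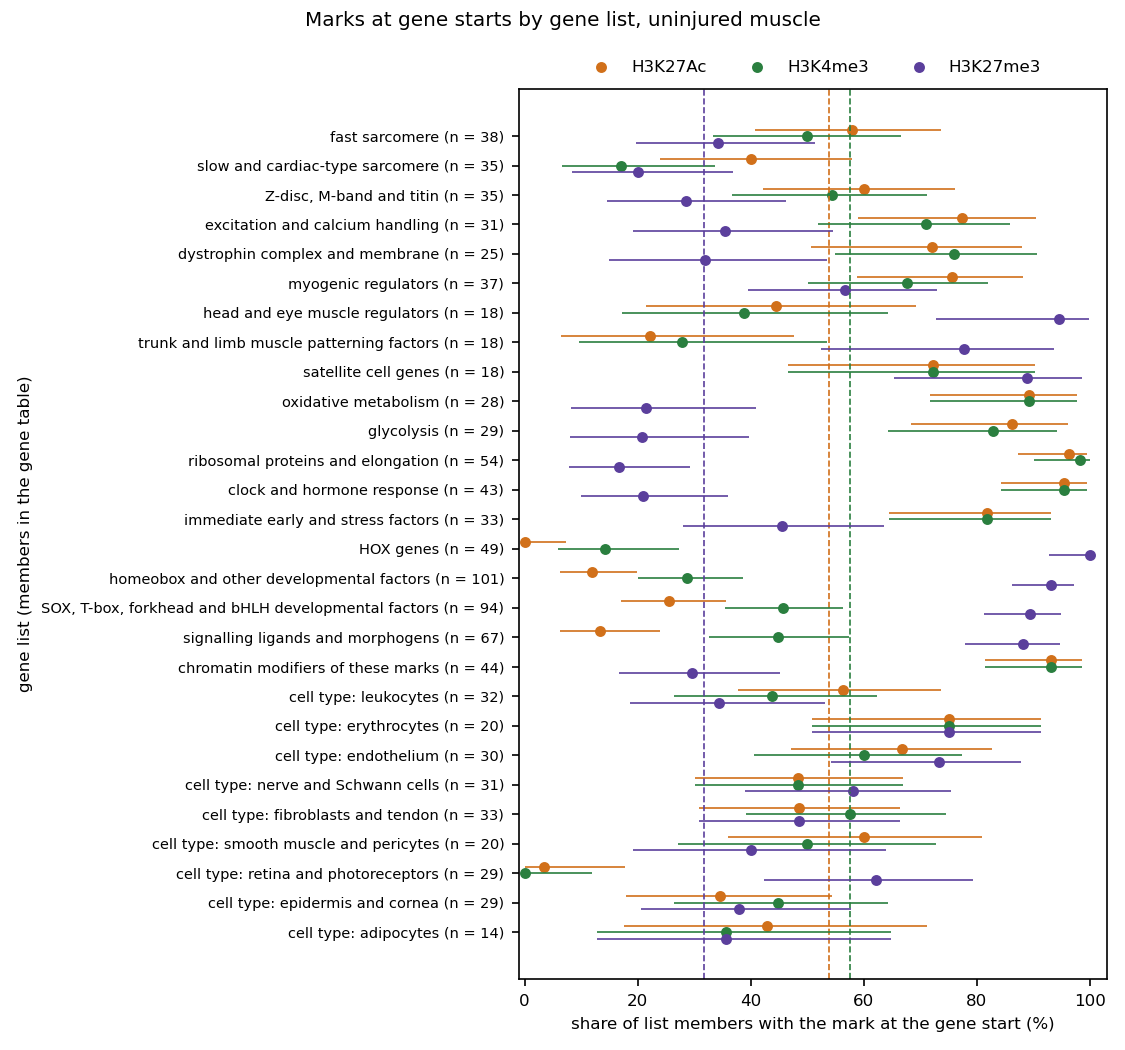
Share of the members of each gene list with H3K27Ac, H3K4me3 or H3K27me3 at the gene start in uninjured muscle, with exact 95% binomial intervals that cover counting error only and treat members as independent, although some share an interval, 1 library per mark. Dashed lines are the shares over 22184 named protein-coding genes (53.9, 57.6 and 31.7%); HOX genes reach 100% for H3K27me3 and the retina list 0% for H3K4me3.

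Markers of other cell types were compared as whole lists, since the muscle pieces could hold blood, vessels, nerve and connective tissue. Retina and photoreceptor genes carried H3K4me3 at 0 of 29 starts, which allows a share of up to 11.9%, and H3K27Ac at 1, arr3b (12.5). They carried H3K27me3 at 18, including rho, opn1lw1 and crx. Leukocyte genes carried H3K27Ac in 18 of 32, with averages from 8.44 to 38.6 at cebpb. The starts of ptprc, mpx, marco and others, 13 in all, had no mark. Those of spi1b and irf8 carried H3K27Ac and H3K4me3 without H3K27me3, while those of coro1a and cd74a carried all 3 marks. Over the list, 11 of 32 carried H3K27me3 and 8 carried all 3 marks. Of 14 with H3K4me3, 11 lay below the lower quartile, and 9 of 18 H3K27Ac intervals were longer than the upper quartile. Erythrocyte genes carried H3K27Ac in 15 of 20 and H3K27me3 in 15, and the adult globins hbaa1 and ba1 carried all 3 marks with H3K27me3 of 30.8 over 44200 bp. H3K27Ac was highest at urod, a haem synthesis gene (57.6), 8 of 15 H3K27Ac intervals were longer than the upper quartile and 11 of 15 H3K4me3 averages lay below the lower quartile. Endothelial genes carried H3K27Ac in 20 of 30, at most 19.4, and all 3 marks in 10, among them kdrl and fli1a. Their H3K27Ac intervals had a median length of 5600 bp, 13 of 20 were longer than the upper quartile, and 15 of 18 H3K4me3 averages lay below the lower quartile.

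Nerve and Schwann cell genes carried H3K27Ac in 15 of 31 and H3K27me3 in 18, with all 3 marks at 9 and H3K27me3 alone at 7. Highest for H3K27Ac were the myelin genes mbpb (28.3), which also carried H3K27me3, pmp22a (25.1) and mbpa (23.9). Of the motor neuron genes, mnx1, isl1 and chata carried H3K27me3 alone, and isl2a also carried H3K4me3. Glial and neuronal members differed, a split read after the values were seen. Among glial members, mbpa, mbpb, mpz, plp1a, plp1b, pmp22a, sox10, erbb3b, foxd3 and s100b carried H3K27Ac. No mark was found at egr2a and egr2b, and egr2a is not named in any interval list. Most of the glial members with H3K27Ac also carried H3K27me3: mbpb, plp1a, sox10, erbb3b, foxd3 and s100b carried all 3 marks. The 7 starts with H3K27me3 alone were all of neuronal genes. Some neuronal genes went the other way: nefla carried H3K27Ac (19.7) and H3K4me3 (22.8) without H3K27me3, and ncam1a, snap25a, snap25b and tubb5 also carried H3K27Ac. Fibroblast and tendon genes carried H3K27Ac in 16 of 33, led by the collagens col1a1a (29.5), col1a1b and col6a2 (24.9). Smooth muscle genes carried it in 12 of 20, epidermal genes in 10 of 29 and adipocyte genes in 6 of 14. The H3K27Ac shares of the leukocyte (56.2%), nerve (48.4%) and fibroblast (48.5%) lists were near the 53.9% of all 22184 named protein-coding genes. Those of the erythrocyte (75%), endothelial (66.7%) and smooth muscle (60%) lists were larger. Those of the adipocyte (42.9%), epidermal (34.5%) and retina (3.45%) lists were smaller. These readings depend on the comparison, since most list members but only 17415 of the 22184 genes are named in the interval lists. Of those 17415, 68.7% carried H3K27Ac. Among named members it was present at 20 of 30 endothelial, 12 of 17 smooth muscle and 15 of 18 erythrocyte genes. For leukocyte, nerve and fibroblast genes it was 18 of 28, 15 of 29 and 16 of 29. The endothelial share was then not larger, and the nerve and fibroblast shares were smaller. The part of these cell types in the intervals described above was not tested.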

How the data were processed

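Chromatin of pooled lateral rectus muscle was mapped for H3K27Ac, H3K4me3 and H3K27me3, 1 library each. BWA, MACS2 2.1.0 and SICER with build danRer10 are named in the submitters' processing notes, without role or order, and call thresholds are not given in the sources used here. The deposited values are signal, the average and maximum tag pileup over an interval without a ratio to input, interval length in bp, and distances to gene starts. Tag depth per library and any scaling are unknown. Interval edges fall on multiples of 200 bp, and neighbours are 800 bp or more apart. Coordinates are those of the files, counted from 1.

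Deposited distances run from the interval's summit, so gene starts were placed from entries in all 9 lists (24201 of 25114 pairs of gene and chromosome). A start carried a mark when inside an interval or within 1000 bp of its edge. A rule on 50% of the interval length, planned for distances from the middle, became an alternative. Of 24868 gene names, 19088 (76.8%) matched a RefSeq gene table of another assembly, used for names only. Shares were read against its 22184 named protein-coding genes, 17415 of which the lists name, in place of all 41229 genes, many of which are tRNA or unnamed genes. List members not named in any interval list count as without a mark. List medians were taken over distinct intervals. Exact 95% binomial intervals (scipy) cover counting error only. Overlap and start placement were tested on simulated data. Python 3.11.15, pandas 2.3.3 and numpy 2.4.6 were used. Value columns without a matched sample numbered 0.

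Genes named were those of the 10 strongest, highest and longest intervals of each mark and, per list, up to 4 of the highest and 2 of the lowest members and members that differ from their list; other named members were chosen after their values were seen. Members and lists were chosen with earlier results of these data known. Alternatives were other overlap rules, rankings, distance rules and the lists without their weakest intervals. No promoter sequences were used.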

Additional observations from a re-analysis of the deposited data

How the results depend on the processing

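No paired analysis was possible because each mark had 1 library. With an overlap of at least 1000 bp or of at least 50% of the shorter interval, every overlap count stayed within 1.5 times its value. Without the lowest quartile of each list by average, H3K27Ac intervals over H3K27me3 numbered 4537, H3K4me3 intervals over H3K27me3 3861 and H3K27me3 intervals over H3K4me3 3650, and the other 3 counts stayed within 1.5 times. Of the top 100 by average, ranking by maximum kept 19 for H3K27Ac, 14 for H3K4me3 and 56 for H3K27me3, and ranking by average times length kept 0, 11 and 46. Leaving out intervals that overlap the top 1% of both other marks removed none, and the lists hold no scaffolds. Joining neighbours over gaps of up to 2000 bp kept 45, 49 and 58 of the 100 longest.

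With a deposited distance of at most 1000 bp, starts with H3K27me3 numbered 3571, with H3K27Ac and H3K27me3 1489, with H3K4me3 and H3K27me3 2224 and with all 3 marks 1411; intervals whose summit lies far from the start drop out by construction. With the start inside the interval, H3K27Ac and H3K27me3 met at 2638 starts and all 3 marks at 2448. Lists above the H3K27Ac share of all genes numbered 16, and 10 by that deposited distance. The other start counts stayed within 1.5 times under a 5000 bp margin, without the lowest quartile, over all table genes and under the rule on 50% of the length; the last 2 were added after the data were seen. Of 84 combinations of list and mark, 31 moved by more than 1.5 times under the deposited distance, 6 under the 5000 bp margin, 17 without the lowest quartile and 0 under the rule on 50% of the length. Tag depth is unknown, so weak intervals may be missing from any list.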

Other observations

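Intervals near chromosome ends were frequent among the strongest. The outer 1 Mb at each end of the 25 chromosomes made up 3.73% of the span covered by the lists and held 6.73% of H3K4me3 intervals (1166), 4.31% of H3K27Ac intervals and 5.12% of H3K27me3 intervals. Of the 100 intervals with the highest average, 18 lay there for H3K4me3, 18 for H3K27Ac and 14 for H3K27me3. Of the 100 with the highest maximum the numbers were 32, 11 and 14, and of the 100 longest 26, 4 and 2, with those of mcl1a and sdhb among the 26. The median average near the ends and elsewhere was 30.7 and 30.9 for H3K4me3, 19.4 and 15.4 for H3K27Ac and 10.4 and 9.00 for H3K27me3.

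Chromosome 4 was unevenly marked. The first 38.3 Mb held 14.6 H3K27me3 intervals per Mb and 26.2 H3K27Ac intervals per Mb, compared with 11.6 and 26.6 over all chromosomes. The remaining 38.3 Mb held 16 H3K27me3 intervals (0.418 per Mb), 198 H3K27Ac intervals (5.17 per Mb) and 252 H3K4me3 intervals (6.58 per Mb, compared with 12.9 over all chromosomes). The median average there, compared with the first 38.3 Mb, was 19.5 and 29.4 for H3K4me3, 19.97 and 14.54 for H3K27Ac and 10.7 and 8.77 for H3K27me3.

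Some merged places held strong H3K27Ac and H3K27me3, which need not overlap over much of their length. The strongest such place by H3K27Ac was at tefb (95.5), where H3K27me3 averaged 8.30 over 6000 bp and shared 600 bp with the H3K27Ac interval of 3400 bp, followed by a place at bada and mark2a (89.3) and by that of cyc1, cytochrome c1 (88.6). Over the 10 strongest such places the H3K27me3 average ran from 6.83 to 13.9. Among the 10 longest places with H3K4me3 and H3K27me3 were those listed for scn4aa, a muscle sodium channel gene (75000 bp), and for tlx1 and lbx1a (67400 bp), both of which also held H3K27Ac.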
